A study of Mus musculus with 8 samples.

Results

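The genes studied are the 9 that set the retinoblastoma checkpoint of the cell cycle: the D-type cyclins Ccnd1, Ccnd2 and Ccnd3, their kinase partners Cdk4 and Cdk6, the kinase inhibitors Cdkn1a, Cdkn1b and Cdkn2c, and the checkpoint's substrate Rb1. They were taken by gene symbol from a table of 20586 rows, each the 3′ untranslated region (3′ UTR) of 1 mouse transcript, and each of the 9 had 1 row. An adjusted p is given for 5327 rows, here called the tested rows, and 8 of the 9 genes are among them. Cdkn2c was the exception, with a mean normalized count of 3.46. The 9 genes were selected on symbol, with the authors' group values and interaction of Ccnd1 and Cdk6 already known, so their values in that comparison are a description and no independent support.

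RNA bound by an antibody against CPEB2 (IP) was sequenced beside lysate RNA (Input) from mammary epithelial cells of Cpeb2 knockout (KO) and wild-type (WT) mice. All samples are labelled as strain C57BL/6J 129, the cells were used fresh and untreated after an epithelial enrichment, and neither age nor the deleted part of Cpeb2 is stated in the sources used here. The 4 groups, KO IP, WT IP, KO Input and WT Input, hold 2 libraries each, from RIP experiments 2 and 3. By the labels, each IP library has an Input library of the same genotype, RIP experiment and replicate number. Whether the authors' fit used this pairing is not known here. Whether the 2 libraries of a group came from different animals is not stated, so p-values measure only how far these libraries spread, which may be technical. The antibody was used in both genotypes, so KO IP shows what it brings down from cells of the knockout. Only Input RNA was selected for poly(A), so any IP to Input difference also holds the difference between unselected and selected RNA.

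D-type cyclins accumulate when a cell receives growth signals. They activate CDK4 and CDK6, which phosphorylate the retinoblastoma protein RB1, so that E2F transcription factors are released and the cell leaves G1. INK4 inhibitors such as the Cdkn2c product bind CDK4 and CDK6, while the Cdkn1a and Cdkn1b products act mainly on the CDK2 complexes and also bind cyclin D complexes. In the mouse mammary gland cyclin D1 is known for its need in alveolar growth during pregnancy. CPEB2 belongs to the proteins that bind cytoplasmic polyadenylation elements in 3′ UTRs and regulate translation.

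Values per group are the authors' log2 values, 1 per group, which behave like log2 of 1 plus a normalized count and carry no error. The interaction is the authors' log2 fold change between the genotypes in IP over Input, taken as WT over KO. Above 0 it means a lower recovery in KO than in WT, and the differences between genotypes below keep this direction, WT minus KO. The knocked-out gene itself had authors' values of 7.43 in KO IP and 9.64 in WT IP beside 5.98 in KO Input and 6.11 in WT Input, and the Input values of its 3′ UTR row do not separate the genotypes.

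Of the 8 tested genes, 2 differed between the genotypes and 6 did not pass. Ccnd1 and Cdk6, a cyclin and a kinase that form a complex, were each less recovered over Input in KO than in WT, and none of the 8 passed in the other direction (authors' deposited table, Wald test, adjusted p of 0.05). Over all tested rows 2.25% passed, 120 less recovered in KO and 0 more, with 668 and 58 at an unadjusted p under 0.05. Since the genes were chosen with this contrast known, nothing is read from the comparison of these shares. The median interaction of the 8 was 0.13, beside 0.23 over all tested rows, and 3 of the 8 were above that median.

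The IP values fell into 3 patterns relative to Input. Ccnd1 and Cdk6 were below Input in KO and above it in WT. Rb1 and Cdkn1b were above Input in both genotypes. Ccnd2, Ccnd3, Cdk4 and Cdkn1a were below it in both. Among all tested rows 9.37% were below Input in KO and above it in WT, 49.7% above it in both and 35.0% below it in both. A position at least 1 log2 unit below Input in KO and yet above it in WT, as Ccnd1 and Cdk6 had, was held by 40 tested rows, or 0.751%. The values of both genes were known before this cut was made, so the share is a description and no support.

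**Figure D1:**
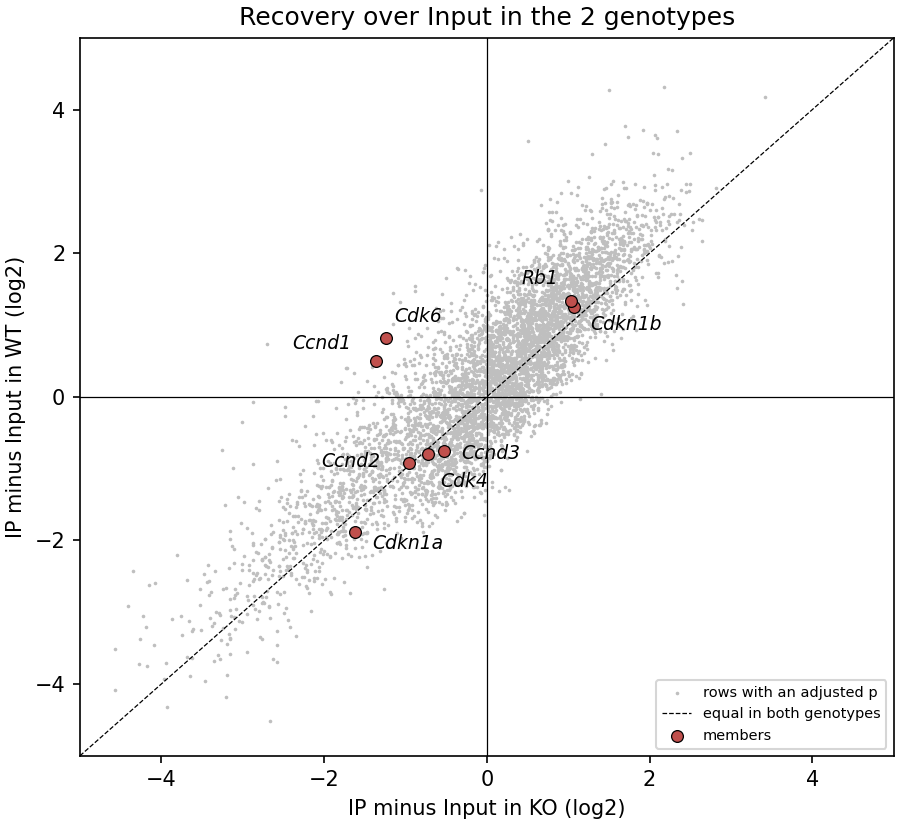
Each point is a 3′ UTR row, with the authors' IP minus Input value in KO on the horizontal axis and in WT on the vertical axis, both log2; grey points are the 5327 tested rows, red points the 8 tested genes, and the dashed line marks equal recovery. Ccnd1 (-1.37 in KO, 0.49 in WT) and Cdk6 (-1.24 in KO, 0.81 in WT) lie at the upper left edge of the cloud, and the other 6 lie within it near the line.

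Among the D-type cyclins, Ccnd1 encodes cyclin D1, the form best known in mammary epithelium and in breast tumours. Its row is the 3′ UTR of ENSMUST00000093962 on the minus strand of chromosome 7, 144929931 to 144932606 (mm10). The authors' values of Ccnd1 were 7.74 in KO IP and 9.69 in WT IP, and 9.11 in KO Input and 9.19 in WT Input. KO IP was thus the low group and the Inputs lay within 0.08 of each other, so the genotype difference of 1.94 in IP was about as large as the interaction. For Ccnd1 the authors' deposited table put the interaction at 1.92 ± 0.43 (SE), with adjusted p = 0.00224 by its Wald test. This is a 3.79-fold difference with a 95% interval from 2.12 to 6.77. With a running median of the interaction over 3′ UTR length subtracted, Ccnd1 had 1.55 and did not pass the recomputed Wald test (adjusted p = 0.0614).

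The Ccnd1 row shares 818 of its 2676 bases, at its 3′ end, with the row of Oraov1 on the opposite strand. Whether counting used strand is not stated in the sources used here, so reads of these 818 bases are uncertain for both genes. The authors' values of Oraov1 were 6.28 in KO IP and 8.05 in WT IP, and 7.92 in KO Input and 8.07 in WT Input. For Oraov1 the authors' deposited table put the interaction at 1.65 ± 0.46 (SE), with adjusted p = 0.0293 by its Wald test. Oraov1 did not pass the recomputed test after subtraction of the median (1.42, adjusted p = 0.163) or of the length trend (1.45, adjusted p = 0.158), or with p adjusted over all rows (adjusted p = 0.0921). The shared bases are 30.6% of the Ccnd1 row and 49.2% of the Oraov1 row, and how many reads fall in them was not tested.

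Ccnd2 encodes cyclin D2, a paralogue of cyclin D1. Its row, on chromosome 6, 127125779 to 127130334, is the longest of the 9 with 4556 bases. The row stops 617 bases short of the RefSeq 3′ end, which the Ccnd1 row reaches. Its mean normalized count of 552 was close to the 551 of Ccnd1. The authors' values of Ccnd2 were 8.57 in KO IP and 8.46 in WT IP, and 9.53 in KO Input and 9.38 in WT Input. Both IP values lay about as far below their Inputs, by 0.96 in KO and by 0.92 in WT. For Ccnd2 the authors' deposited table put the interaction at 0.07 ± 0.37 (SE), with adjusted p = 0.955 by its Wald test and a 95% interval from -0.65 to 0.79. That interval lies wholly below the interval of Ccnd1, which ran from 1.09 to 2.76, although both cyclins had nearly the same count. The difference between the 2 genes was not itself tested.

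Ccnd3, the gene of cyclin D3, was the least counted of the 3 cyclins, with a mean normalized count of 70.8. Its row is on chromosome 17, 47598777 to 47599691. The authors' values of Ccnd3 were 5.90 in KO IP and 5.71 in WT IP, and 6.42 in KO Input and 6.47 in WT Input. IP was below Input in both genotypes and the values of the genotypes were close in both fractions. For Ccnd3 the authors' deposited table put the interaction at -0.23 ± 0.51 (SE), with adjusted p = 0.889 by its Wald test and a 95% interval from -1.24 to 0.77. The row shares 361 of its 915 bases with the row of Bysl on the opposite strand, for which the authors' deposited table listed -0.05 ± 0.52 (adjusted p = 0.974 by its Wald test).

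**Figure D2:**
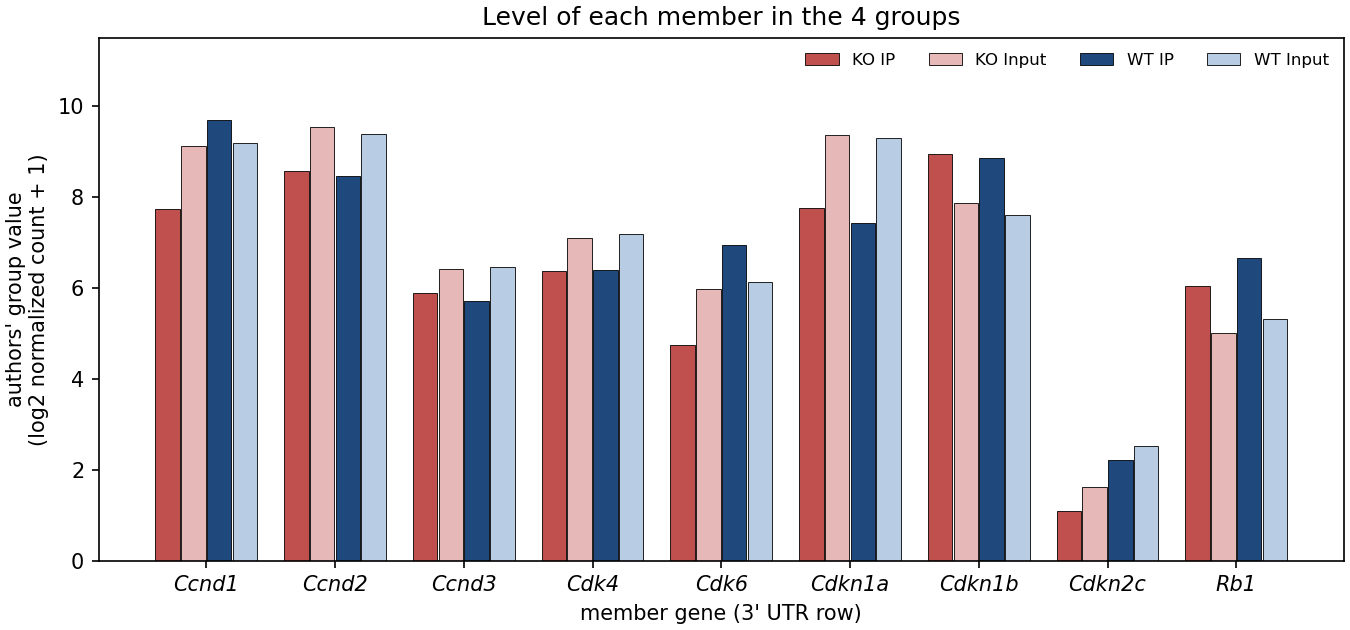
Bars give the authors' group value (log2 of 1 plus a normalized count, 1 value per group, no error) of the 9 genes in KO IP, KO Input, WT IP and WT Input. For Ccnd1 and Cdk6 the KO IP bar is the lowest of the 4 and the WT IP bar the highest, while Cdkn2c stays below 2.6 in every group.

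The 2 kinases split as the cyclins did. Cdk6 lies on chromosome 5, and its row covers 3520792 to 3523218, ending 7790 bases before the 3′ end of the RefSeq gene. The row thus holds only part of the annotated 3′ side of the gene. The authors' values of Cdk6 were 4.75 in KO IP and 6.95 in WT IP, and 5.99 in KO Input and 6.14 in WT Input. KO IP was again the low group, WT IP the high one, and the Inputs lay 0.15 apart.

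For Cdk6 the authors' deposited table put the interaction at 2.25 ± 0.68 (SE), with adjusted p = 0.0429 by its Wald test. This is a 4.76-fold difference with a 95% interval from 1.89 to 11.95. The count behind it is low, with a mean normalized count of 73.3, and its standard error was the widest of the 8 tested genes. In 3 alternatives Cdk6 did not pass the recomputed Wald test. After subtraction of the median over all tested rows it had 2.02 (adjusted p = 0.170), after subtraction of the trend over length 1.88 (adjusted p = 0.270), and with p adjusted over all rows that have one its adjusted p was 0.134.

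Cdk4 encodes the other cyclin D kinase. The authors' values of Cdk4 were 6.37 in KO IP and 6.38 in WT IP, and 7.10 in KO Input and 7.18 in WT Input. The IP values of the genotypes differed by 0.01, and both lay below Input, by 0.73 in KO and by 0.80 in WT. For Cdk4 the authors' deposited table put the interaction at -0.06 ± 0.45 (SE), with adjusted p = 0.962 by its Wald test and a 95% interval from -0.95 to 0.82, entirely below the interval of Cdk6, which ran from 0.92 to 3.58. As for the cyclins, the difference between the 2 genes was not itself tested.

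The Cdk4 row, on chromosome 10, 127067022 to 127067920, is less certain than the others. It runs 632 bases past the 3′ end of the RefSeq gene and shares 604 of its 899 bases with the row of Tspan31 on the opposite strand. For Tspan31 the authors' deposited table listed -0.39 ± 0.47 (adjusted p = 0.771 by its Wald test), so neither gene of the pair passed.

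**Figure D3:**
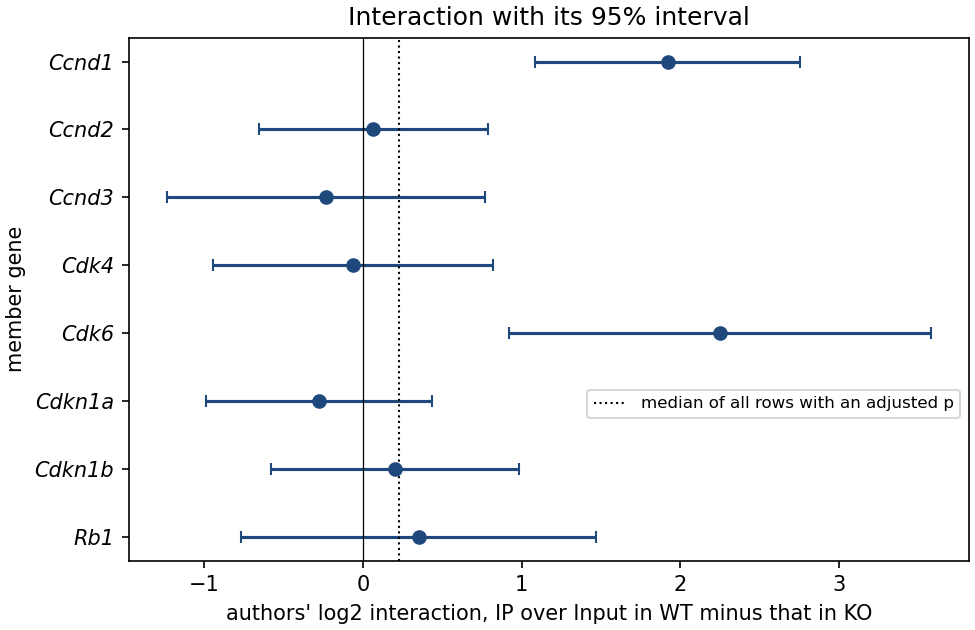
Points are the authors' log2 interaction (IP over Input in WT minus that in KO) of the 8 tested genes, and bars are 95% intervals from the authors' standard errors; the dotted line is the median of all tested rows, 0.23. The intervals of Ccnd1 and Cdk6 lie above 0.9, and those of the other 6 all include 0.

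Among the inhibitors, Cdkn1a and Cdkn1b were well counted and lay on opposite sides of Input. Cdkn1a encodes p21, the inhibitor induced by p53, and its row is on chromosome 17, 29099394 to 29100722. The authors' values of Cdkn1a were 7.75 in KO IP and 7.42 in WT IP, and 9.37 in KO Input and 9.30 in WT Input. Both IP values were far below Input, by 1.61 in KO and by 1.89 in WT. Of all tested rows 17.0% were at least 1 below Input in KO and 15.7% in WT, and 9.91% lay lower than Cdkn1a in KO and 5.14% in WT. For Cdkn1a the authors' deposited table put the interaction at -0.28 ± 0.36 (SE), with adjusted p = 0.803 by its Wald test and a 95% interval from -0.99 to 0.44.

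Cdkn1b encodes p27, an inhibitor whose level is set largely by translation and protein turnover. Its row is on chromosome 6, 134922075 to 134925513. The authors' values of Cdkn1b were 8.93 in KO IP and 8.86 in WT IP, and 7.86 in KO Input and 7.61 in WT Input. Recovery was above Input in both genotypes, by 1.07 in KO and by 1.25 in WT, so it was also present in the knockout. For Cdkn1b the authors' deposited table put the interaction at 0.20 ± 0.40 (SE), with adjusted p = 0.877 by its Wald test and a 95% interval from -0.58 to 0.98. Of all tested rows 17.0% were at least 1 above Input in KO, and 28.1% in WT.

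Cdkn2c encodes the INK4 inhibitor p18, and its row of 373 bases on chromosome 4, 109660876 to 109661248, held few reads. The authors' values of Cdkn2c were 1.10 in KO IP and 2.21 in WT IP, and 1.63 in KO Input and 2.53 in WT Input. Both KO values were below both WT values, but the authors' deposited table put the interaction at 0.11 ± 2.13 (SE), with unadjusted p = 0.961 by its Wald test and a 95% interval from -4.06 to 4.27. A difference was not detectable at this depth.

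Rb1, the substrate of the cyclin D kinases, is on chromosome 14, and its row covers 73195502 to 73197210, stopping 2644 bases short of the RefSeq 3′ end. The authors' values of Rb1 were 6.04 in KO IP and 6.66 in WT IP, and 5.005 in KO Input and 5.32 in WT Input. Rb1 was above Input in both genotypes, by 1.04 in KO and by 1.33 in WT, and lower in KO than in WT in both fractions. For Rb1 the authors' deposited table put the interaction at 0.35 ± 0.57 (SE), with adjusted p = 0.851 by its Wald test and a 95% interval from -0.77 to 1.47.

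Input levels were close between the genotypes for these genes. The WT minus KO difference in Input ran from -0.25 for Cdkn1b to 0.32 for Rb1 over the 8 tested genes, with a median of 0.06, beside -0.09 over all tested rows. None of the 8 differed by at least 1 in Input, as 0.188% of tested rows did. In such bulk samples fewer cells of a type and less RNA per cell cannot be told apart. In IP the same difference was at least 1 for Ccnd1 and Cdk6 alone of the 8, as it was for 6.78% of all tested rows.

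Expressed per 1000 bases of the row, as the back-transformed normalized count, Cdkn1a had the highest Input level, 496 in KO and 475 in WT. Ccnd1 followed with 206 in KO Input and 218 in WT Input. Ccnd2 (162 in KO, 146 in WT) and Cdk4 (151 in KO, 160 in WT) changed places between the genotypes, and the group values carry no error that would separate them. The Cdk4 row runs past its RefSeq gene and overlaps the row of Tspan31, so its level may not be that of Cdk4 alone. The rows of Ccnd2, Cdk6 and Rb1 stop short of the RefSeq 3′ end.

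The lower Input levels per 1000 bases were, in the same order in both genotypes, Ccnd3 (92.7 in KO, 95.8 in WT), Cdkn1b (67.4 in KO, 56.6 in WT), Cdk6 (25.7 in KO, 28.6 in WT), Rb1 (18.2 in KO, 22.8 in WT) and Cdkn2c (5.60 in KO, 12.8 in WT). In IP the order differed between genotypes. Ccnd1 had 79.7 per 1000 bases in KO IP, the fifth level of the 9, and 308 in WT IP, the highest of the 9. Cdk6 had 10.6 in KO IP and 50.5 in WT IP and was the eighth in both.

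Recovery over Input also went with 3′ UTR length in the table as a whole. The running median of IP minus Input was -0.10 in KO and -0.09 in WT around the length of Cdk4, the shortest of the 8 tested rows, and 0.43 in KO and 0.91 in WT around that of Ccnd2, the longest. Among tested rows of a length like that of Ccnd1, the running median of IP minus Input was 0.32 in KO and 0.65 in WT. Ccnd1 was thus well below rows of its length in KO, at -1.37, and near them in WT, at 0.49. Around the length of Cdk6 the running medians were 0.39 in KO and 0.67 in WT, against its own -1.24 in KO and 0.81 in WT. Ccnd2 was below rows of its length in both genotypes, and so was Cdkn1a, around whose length the running medians were 0.08 in KO and 0.23 in WT. Cdkn1b and Rb1 were above theirs in both.

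The rows most like Ccnd1 were sought over the 4 group values, after each row's mean was subtracted, by Euclidean distance. Over all tested rows the median distance from Ccnd1 was 1.72. Among tested rows with a gene symbol, gene models left out, the nearest was Cdk6 at 0.293. After it came the splicing factor gene Nova2 at 0.325, Tnrc18 at 0.329, the adhesion receptor gene Adgrl2 at 0.378 and the bromodomain gene Brd3 at 0.382. All 5 had a lower value in KO IP than in either Input, which a choice by closeness to Ccnd1 makes likely. From Cdk6 the nearest such rows were the phosphatase gene Ctdp1 at 0.258, Ccnd1 at 0.293, Mall at 0.420, the zinc finger gene Prdm16 at 0.450 and the adhesion gene Cadm4 at 0.460. From Cdkn1b they were Synj2, Myo9a, Atf7, Rnf11 and Fryl, at 0.059 to 0.087. The interactions of these 5 ran from 0.16 to 0.34, a closeness that also follows from the choice. A distance over 4 group values without error describes likeness in these libraries only, and the values of Ccnd1 and Cdk6 were known when the measure was set.

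Other genes of the cell cycle were followed in 8 lists of 99 genes, of which 98 had a row and 38 were tested. Of the 38, 1 was less recovered in KO than in WT, 0 more and 37 did not pass, against 2.25% of all tested rows that passed. At an unadjusted p under 0.05 there were 6 of the 38. Over all tested rows 12.5% were less recovered in KO at that p and 1.09% more. Their median interaction was 0.32, beside 0.23 over all tested rows. The gene that passed was Sp1, a transcription factor known to act at many promoters, Ccnd1 and Cdkn1a among them. The authors' values of Sp1 were 9.75 in KO IP and 10.8 in WT IP, and 9.20 in KO Input and 8.92 in WT Input, so it was above Input in both genotypes, unlike Ccnd1 and Cdk6. For Sp1 the authors' deposited table put the interaction at 1.30 ± 0.39 (SE), with adjusted p = 0.0407 by its Wald test. Sp1 did not pass the recomputed test after subtraction of the median (1.07, adjusted p = 0.240) or of the length trend (0.77, adjusted p = 0.647), or with p adjusted over all rows (adjusted p = 0.128).

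The list of upstream inducers, to which Sp1 belongs, had 16 of 17 genes tested and a median of 0.49, with 12 above 0. Most of all tested rows were above 0 as well, with a median of 0.23 and a lower quartile of -0.17. In the authors' deposited table its next members by p were the transcription factors Ets1 with 1.10, Stat5b with 1.10 and Foxo3 with 0.78. None of these passed the Wald test there, with adjusted p-values of 0.0613 for Ets1, 0.211 for Stat5b and 0.352 for Foxo3. All 3 were above Input in both genotypes.

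Downstream of RB1, the list of E2F factors, other pocket proteins and their partners had 4 of 17 genes tested, with 0 passing and a median of 0.70. In the authors' deposited table the activator E2f3 had 1.03, the histone-binding Rbbp4 0.78, the E2F partner Tfdp2 0.63 and the pocket protein gene Rbl2 0.35, with adjusted p-values from 0.374 to 0.863 (Wald test). The IP values of E2f3, Tfdp2 and Rbl2 were above Input in both genotypes, as those of Rb1 were. The E2F targets of DNA replication, 18 genes such as the MCM helicase subunits, had no tested row. Their mean normalized counts ran from 1.14 to 21.95, too few for the authors to give an adjusted p, and 0 of the 18 had an unadjusted p under 0.05 by their Wald test.

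Of the 15 genes for turnover of D cyclins and p27, 9 were tested and 0 passed, with a median of 0.11. At an unadjusted p under 0.05 there was 1 of the 9, beside 12.5% of all tested rows less recovered in KO and 1.09% more. In the authors' deposited table the deubiquitinase gene Usp2 had 1.19 (Wald test, adjusted p = 0.141), the kinase gene Gsk3b 0.85, the F-box gene Fbxw8 -0.60 and the ligase adaptor gene Ambra1 -0.44. Usp2 was well below Input in both genotypes, by 3.16 in KO and by 1.98 in WT. Gsk3b, whose kinase marks cyclin D1 for export and degradation, was below Input by 0.30 in KO and above it by 0.48 in WT, but the difference did not pass (Wald test, adjusted p = 0.367).

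The remaining lists had few tested genes. Of cyclins E, A and B with their kinases, 1 of 15 was tested, the phosphatase gene Cdc25a with 0.46 in the authors' deposited table. Of the CDK-activating kinase, 1 of 3 was tested, Cdk7 with 0.80, and of the other CDK inhibitors, 1 of 5, Cdkn1c with 0.39, both in the authors' deposited table. The authors' values of Cdkn1c, which encodes p57, were 3.96 in KO IP and 3.79 in WT IP, and 7.23 in KO Input and 6.82 in WT Input. Like its relative Cdkn1a, and unlike its relative Cdkn1b, it was far below Input in both genotypes. Of 9 other cyclin-like genes and partners 6 were tested and 0 passed, with Ccng2 at 0.94 and Ccnl2 at -0.81 in the authors' deposited table, and a median of 0.03. At an unadjusted p under 0.05 there was 1 of the 6, beside 12.5% of all tested rows less recovered in KO and 1.09% more.

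**Figure D4:**
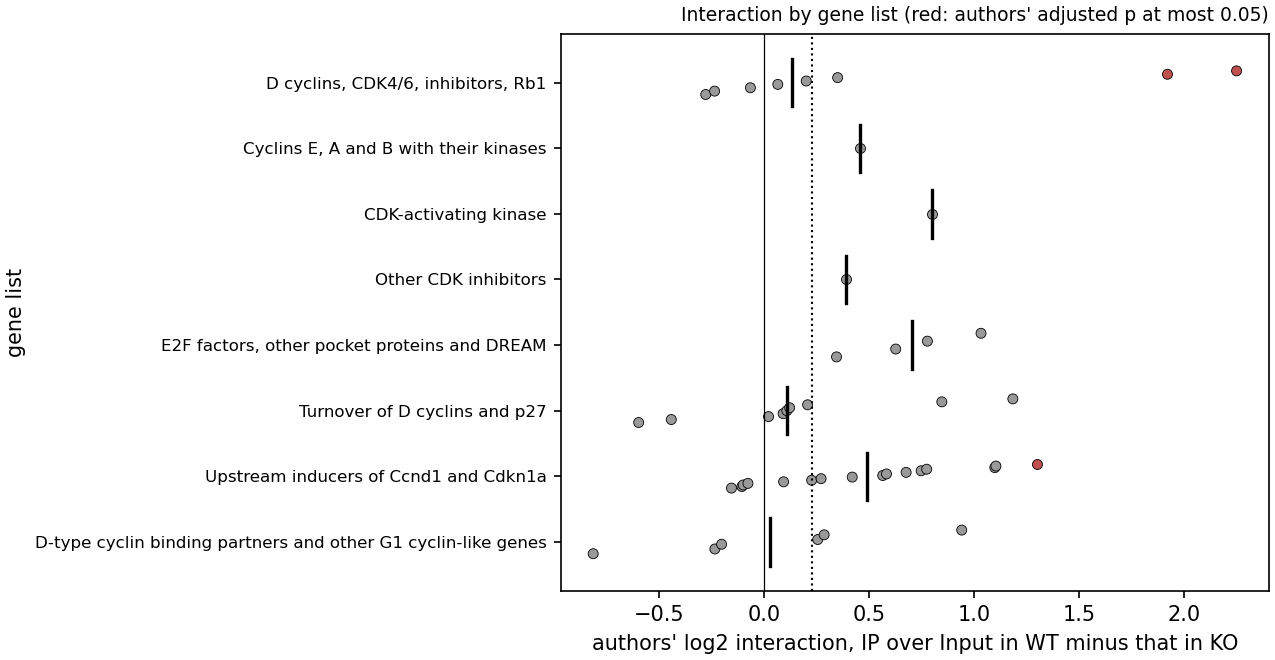
Each point is a tested gene, placed by the authors' log2 interaction (IP over Input in WT minus that in KO), for the D cyclin group and 7 lists with a tested gene; bars are list medians, the dotted line is the median of all tested rows, 0.23, and red marks an adjusted p of at most 0.05. Ccnd1 and Cdk6 stand apart at the right of their row, and Sp1 is the 1 red point of the other lists.

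Markers of cell types were summed as back-transformed normalized counts. The 5 epithelial markers were all present, with sums of 1425 in KO IP and 1537 in WT IP, and 1053 in KO Input and 1070 in WT Input, and 0 of 5 tested passed, with a median interaction of -0.69. The 8 endothelial markers were present as well, with sums of 1133 in KO IP and 2300 in WT IP, and 1629 in KO Input and 1473 in WT Input. Of 7 tested endothelial markers 3 were less recovered in KO than in WT and 4 did not pass, against 2.25% of all tested rows that passed, with a median interaction of 1.24 beside 0.23 over all tested rows. The endothelial sum was thus lower in KO than in WT in IP and not in Input. Ccnd1 and Cdk6 were also lower in KO IP than in WT IP. Their WT minus KO differences in Input were 0.08 for Ccnd1 and 0.15 for Cdk6, values that carry no error. The 5 luminal progenitor markers also had a lower sum in KO IP, 999, than in WT IP, 1866, beside 741 in KO Input and 912 in WT Input, with 0 of 4 tested passing and a median interaction of 0.58. Other lists had the higher sum in KO IP. Leukocyte markers summed to 184 in KO IP and 85.5 in WT IP, with 0 of 2 tested passing and a median interaction of -0.80. Fibroblast markers summed to 3108 in KO IP and 2242 in WT IP, with 0 of 6 passing and a median of -0.22. The IP sums of the remaining 3 lists, as WT over KO, were 1.19 for basal, 1.01 for hormone-receptor-positive luminal and 0.929 for adipocyte markers, with median interactions of -0.28, -0.69 and -0.29 and none passing. The sums of these 5 lists in Input, as WT over KO, ran from 0.689 for leukocytes to 1.05 for basal cells, and no listed marker was at 0 in both Inputs. The epithelial and hormone-receptor-positive luminal lists share Krt8 and Krt18, so their equal medians are not separate results. The part of any of these cell types in the results for Ccnd1 and Cdk6 was not tested.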

How the data were processed

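The 1 table used holds a row per 3′ UTR of an Ensembl transcript on mm10. The authors' tools were Bowtie 0.12.9, Bowtie2 2.2.2 and DESeq2, per the submitters' processing notes, with no roles given. How reads were counted, by strand or not and with multiple mapping or not, is not stated in the sources used here. The authors deposited 1 log2 value per group, a mean normalized count (a signal over all libraries, DESeq2 per the file headers), the interaction as log2 fold change, its standard error, a Wald score equal to their ratio, a p-value and a 0 or 1 call by the authors. The deposited adjusted p equals p after Benjamini-Hochberg adjustment over the 5327 rows whose mean normalized count reached 42.9. The deposited row width is another column used, as 3′ UTR length. The direction of the interaction was read from a Spearman correlation of 0.998 across tested rows with the same difference of the group values. Back-transformed group means were at or below the mean count in 100% of rows.

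A further 8 columns of values per library carry only sequencing indexes, which the labels do not pair with samples, so they were not used. The edgeR fit, the replicate block and the fits without a replicate that had been planned were therefore not run, and depth per library is unknown here. Standard errors of tested rows ran from 0.305 to 1.49, and 95% intervals extend 1.96 standard errors to each side. Differences of group values have no test. The running median takes 501 rows sorted by length. RefSeq positions are of GRCm38.p6, whose chromosomes are those of mm10, and 9 of 9 symbols matched.

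The members and lists were chosen with earlier results of these data known. Named genes are the 9 members, up to 4 per list by p plus any past 0.05, rows overlapping a member, Cpeb2, and the 5 rows nearest to Ccnd1, Cdk6 and Cdkn1b, without gene models. No 3′ UTR sequence was used. The work was done in Python 3.11.15 (matplotlib 3.10.9, scipy 1.17.1, pandas 2.3.3, numpy 2.4.6).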

Additional observations from a re-analysis of the deposited data

Results flagged for a closer look

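Of the 45 named genes, many of them picked for a small p or for likeness, 11 passed the authors' own interaction test. At an adjusted p of 0.05 their IP over Input differed between KO and WT, each higher in WT. In the authors' deposited table the log2 interactions of the 2 cell cycle genes were 2.25 for Cdk6 and 1.92 for Ccnd1. Oraov1, which overlaps Ccnd1, had 1.65, and Cpeb2 itself 2.12 in the authors' deposited table. Cpeb2 had 1.62 after subtraction of the trend over 3′ UTR length and did not pass the recomputed Wald test there (adjusted p = 0.0684). Of the rows named for their likeness to Ccnd1 or Cdk6, those that passed had 2.50 for Prdm16, 2.22 for Tnrc18, 2.03 for Brd3, 1.94 for Cadm4, 1.90 for Adgrl2 and 1.71 for Nova2 in the authors' deposited table. These rows were picked for a pattern that contains the interaction, so their passing is no separate result. Ctdp1 (1.87, adjusted p = 0.156) and Mall (1.41, adjusted p = 0.274), named for likeness to Cdk6, did not pass the authors' Wald test. Sp1 had 1.30 in the authors' deposited table.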

How the results depend on the processing

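The 120 rows less recovered in KO became 30 after subtraction of the median over all tested rows, 17 after subtraction of the trend over 3′ UTR length and 47 with every row in the adjustment, and the count of rows more recovered in KO was 0 in each of these. The rows less recovered in KO numbered 169 at an adjusted p of 0.10 and 109 among rows with a mean count of at least 100, again with 0 more recovered in KO. Ccnd1 did not pass with the length trend subtracted (1.55), and passed in the 4 other alternatives run. Cdk6 did not pass with the median subtracted (2.02), with the length trend subtracted (1.88) or with every row in the adjustment (2.25). The interactions of Ccnd2 and Cdkn1b, which did not pass, changed sign, to -0.16 and -0.028 with the median subtracted and to -0.44 and -0.29 with the length trend subtracted. No IP minus Input difference of the 8 tested genes changed sign after subtraction of its median over all tested rows. The length trend was not subtracted from these differences. Ccnd1 in WT, at 0.49, lay below the running median of 0.65 at its length. No paired analysis was possible because the columns of values per library carry no sample name, and for the same reason no library was left out and no other count test was run. Low counts limit Cdkn2c most, and Ccnd3, Cdk6 and Rb1, with mean counts under 100, next.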
